A study of Mus musculus with 12 samples.

Results

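The genes described here mark the nerve cells and glia of the gut wall. They were taken as a named list of 31 genes, of which 30 were measured by at least 1 probe set annotated with a single gene symbol, out of 22180 genes measured in this way and 41345 probe sets in all. Where a gene had several such probe sets, the brightest over the 12 arrays was used. The list holds 15 genes of neuronal structure and synapse, 3 of the enteric lineage and its GDNF receptor, 9 of transmitters, peptides and granule proteins, and 4 of glia. The missing gene is Phox2a, whose probe set also carries another gene's symbol, and it was not analysed here.

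Total RNA from mouse colon was hybridised to Affymetrix whole-transcript arrays, 3 for each of 4 genotypes. DKO mice lacked both IL-10 and STING (IL10-/- STING-/-), IL10KO mice lacked IL-10 and kept STING (IL10-/- STING+/+), SKO mice lacked STING and kept IL-10 (IL10+/+ STING-/-), and WT mice had both genes (IL10+/+ STING+/+). IL-10 is an anti-inflammatory cytokine whose loss makes mice prone to colitis, while STING is an adaptor that starts interferon and inflammatory signalling in response to cytosolic DNA. The stated purpose was to set the colon profiles of the IL-10 and the IL-10/STING knockouts against each other. Age, strain background and housing of the mice, and the part of each gene that was deleted, were stated in none of the sources used. The labels do not say that the arrays of a genotype came from separate animals, so the p-values cover no more than the spread among these samples, which may be technical.

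The enteric nervous system lies in the wall of the gut as a pair of ganglionated nets, the myenteric plexus between the muscle layers and the submucosal plexus beneath the mucosa. Its neurons signal with acetylcholine, nitric oxide and neuropeptides to smooth muscle, vessels and epithelium, and its glia, which express S100b, Sox10 and Gfap, surround them. Neurons and glia both descend from neural crest cells whose spread through the gut needs the receptor Ret. In whole colon RNA, fewer cells of a type and less RNA per cell cannot be told apart.

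Several arrays stood apart from the rest of their group. The Sting1 probe set had log2 signals of 4.23, 4.13 and 4.34 in DKO, 6.87, 8.09 and 7.33 in IL10KO, 4.40, 4.32 and 4.28 in SKO, and 7.51, 6.40 and 4.56 in WT arrays. The library labelled WT replicate 3 therefore had a Sting1 signal near those of the STING-deficient arrays and below those of the other two labelled WT, so it goes against its label, and every WT mean below includes it unless stated. The Il10 probe set read 4.33 to 4.60 in DKO, 4.59 to 5.47 in IL10KO, 3.65 to 3.82 in SKO and 3.59 to 3.80 in WT arrays, and since the deleted part is not given it checks no label. A 12-gene list of pancreatic acinar enzymes averaged 8.73 and 11.46 in WT replicates 1 and 2 and 4.88 to 5.95 in all other arrays. A 16-gene list of squamous epithelium averaged 6.96 and 7.19 in IL10KO replicates 2 and 3, 5.10 in IL10KO replicate 1, 5.30 in DKO replicate 3 and 4.21 to 4.45 elsewhere. Columnar epithelium markers of the colon averaged 10.44 to 10.93 over the 12 arrays, so the labelled tissue carried its own markers, and the median over all probe sets lay between 4.80 and 5.02 in every array.

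Loss of IL-10 in mice that kept STING was accompanied by lower signals of neuronal genes in the colon. In IL10KO against WT colon, 7 of the 30 members were lower at an adjusted p under 0.05 (limma, Benjamini-Hochberg over all 22180 genes) and none was higher, while 5.01% of all genes were lower and 3.12% higher by the same rule. The 7 were Snap25, Syt1, Stmn2, Prph and Nefl among the structural and synaptic genes, and Vip and Scg2 among the peptides and granule proteins. Their differences ran from -0.72 for Scg2 to -1.37 for Snap25 on the log2 scale, and no glial or lineage member passed. The median over the 30 members was -0.31, against 0.03 over all genes, and 25 of 30 members had a difference below 0, against 46.4% of all genes. Measured relative to the mean of a smooth muscle list, described further on, the same median was 0.46, against 0.79 over all genes. The sign of the members' median thus depended on the scale. The change of scale shifts the differences of all genes by the same amount. The gap between the members' median and that of all genes is therefore equal on both scales by construction. The members were chosen with earlier results of these data known. Their counts and medians beside those of all genes are thus a description and no test.

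Promoter sequence was available from RefSeq (build GRCm38.p6) for 23 of the 31 named genes, as windows of 300 bases from 250 before to 50 after a start site. Snap25, Stmn2 and Nefl, which were lower in IL10KO colon, had no window. The windows of 3 members that were lower in IL10KO colon are shown because they hold letters of motifs known from neuronal and peptide genes, and the window of Cartpt is shown because it shares a motif with Scg2 while its signal was not lower. The motifs searched on both strands were TGACGTCA, the cyclic AMP response element, and its shorter form TGACGT, which lies within it, TTCAGCACC and GGACAGC, the left and right parts of the RE1 element read by the repressor REST, and the TATA box TATAAA. Capitals mark these letters on either strand, and the lines give Scg2 at chr1:79439977-79440276 on the minus strand, Vip at chr10:5638968-5639267 on the plus strand, Prph at chr15:99054924-99055223 on the plus strand and Cartpt at chr13:99900634-99900933 on the minus strand.
Scg2: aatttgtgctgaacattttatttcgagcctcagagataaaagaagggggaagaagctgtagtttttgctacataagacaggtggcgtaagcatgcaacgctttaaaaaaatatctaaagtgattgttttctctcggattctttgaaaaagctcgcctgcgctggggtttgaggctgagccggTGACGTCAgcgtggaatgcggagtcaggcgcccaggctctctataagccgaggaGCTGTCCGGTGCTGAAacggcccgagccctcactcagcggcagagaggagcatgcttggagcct
Vip: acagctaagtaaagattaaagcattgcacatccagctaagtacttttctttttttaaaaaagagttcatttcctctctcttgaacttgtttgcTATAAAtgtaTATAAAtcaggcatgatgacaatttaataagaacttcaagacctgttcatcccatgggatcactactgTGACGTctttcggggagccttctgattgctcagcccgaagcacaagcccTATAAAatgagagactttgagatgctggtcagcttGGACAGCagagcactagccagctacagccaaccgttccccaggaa
Prph: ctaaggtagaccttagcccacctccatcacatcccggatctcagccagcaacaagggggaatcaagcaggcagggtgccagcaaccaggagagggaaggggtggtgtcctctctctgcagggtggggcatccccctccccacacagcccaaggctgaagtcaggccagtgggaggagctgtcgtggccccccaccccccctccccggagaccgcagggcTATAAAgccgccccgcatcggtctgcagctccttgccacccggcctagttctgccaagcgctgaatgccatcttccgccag
Cartpt: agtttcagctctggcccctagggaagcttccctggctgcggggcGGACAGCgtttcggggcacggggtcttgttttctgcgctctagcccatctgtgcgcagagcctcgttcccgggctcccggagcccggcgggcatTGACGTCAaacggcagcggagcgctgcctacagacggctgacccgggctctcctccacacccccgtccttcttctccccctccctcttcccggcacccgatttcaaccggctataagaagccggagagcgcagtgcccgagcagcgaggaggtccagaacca
In the Scg2 window TGACGTCA stood at positions -68 to -61 from the start, GGACAGC on the minus strand at -14 to -8 and TTCAGCACC on the minus strand at -7 to 2, so that the last run of capitals joins both RE1 parts. In the Vip window TGACGT stood at -79 to -74, GGACAGC at 6 to 12 and TATAAA at -157, -147 and -30. The Prph window held TATAAA at -31 to -26, and the Cartpt window held TGACGTCA at -112 to -105 and GGACAGC at -206 to -200. Among the 32851 windows of all genes, 1.79% held TGACGTCA, 7.51% TGACGT, 0.371% TTCAGCACC, 6.56% GGACAGC and 13.6% TATAAA. Of the 23 members with a window, TGACGTCA was present in Scg2 and Cartpt, and TGACGT also in Vip, Chat and 1 of the 4 Elavl4 windows. TTCAGCACC was present in Scg2, GGACAGC in Scg2, Vip, Cartpt and Tubb3, and TATAAA in Vip, Prph and Elavl3. Both windows of Syt1 held none of these letters. A match is a run of letters in a window and not a measured site.

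Among the genes of the synapse, Snap25, which encodes a SNARE protein that fuses synaptic vesicles with the membrane, had the largest difference of any member. Its probe set (17376822) gave log2 signals of 8.03, 7.56 and 7.76 in DKO, 6.10, 6.74 and 6.49 in IL10KO, 8.13, 7.78 and 8.05 in SKO, and 7.59, 7.88 and 7.97 in WT arrays. All 3 IL10KO arrays lay below all 9 others, and the other 3 genotypes overlapped. The IL10KO signal was 2.59-fold lower than WT, a log2 difference of -1.37 ± 0.18 (SE, 95% interval -1.77 to -0.97, limma adjusted p = 0.000934). Syt1, the calcium sensor that triggers vesicle release, read 6.67, 6.42 and 6.20 in DKO, 5.36, 5.74 and 5.29 in IL10KO, 6.76, 6.68 and 6.40 in SKO, and 6.45, 6.48 and 6.58 in WT arrays. Here too the IL10KO arrays were the lowest 3 of 12, and the difference from WT was -1.04 ± 0.16 (SE, limma adjusted p = 0.00238). Syp, the vesicle membrane protein synaptophysin, did not follow them: it read 5.50, 4.99 and 5.17 in IL10KO and 5.16, 5.23 and 5.16 in WT arrays, with IL10KO replicate 1 the highest and replicate 2 the lowest of these 6. Its difference was 0.04 (95% interval -0.26 to 0.34), and a second Syp probe set gave 0.36 (limma adjusted p = 0.204 over all probe sets).

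Stmn2 encodes a stathmin that regulates microtubules in growing neurites. Its signals were 7.64, 7.43 and 7.50 in DKO, 6.35, 6.74 and 6.76 in IL10KO, 7.72, 7.56 and 7.91 in SKO, and 7.57, 7.70 and 7.56 in WT arrays. The IL10KO arrays overlapped with no other genotype, and the difference from WT was -0.99 ± 0.15 (SE, limma adjusted p = 0.00168). The related stathmin Stmn3 read 6.41, 6.09 and 6.28 in IL10KO and 6.16, 6.15 and 6.47 in WT arrays, so its groups overlapped (95% interval of the difference -0.30 to 0.30).

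The intermediate filament genes differed among themselves. Prph encodes peripherin, the filament protein of peripheral and enteric neurons, and read 5.47, 5.58 and 5.67 in DKO, 5.17, 4.71 and 4.84 in IL10KO, 5.58, 5.39 and 5.61 in SKO, and 5.44, 5.78 and 5.88 in WT arrays. The IL10KO arrays were again the lowest 3, by -0.79 ± 0.16 against WT (SE, limma adjusted p = 0.00909). Nefl, the light neurofilament, read 4.81, 4.35 and 4.83 in DKO, 3.88, 3.64 and 4.30 in IL10KO, 4.77, 4.56 and 5.04 in SKO, and 4.61, 5.20 and 4.53 in WT arrays. The highest IL10KO array lay just under the lowest DKO array (difference from WT -0.83 ± 0.22 SE, limma adjusted p = 0.0336). Nefm, the medium neurofilament, read 4.07, 3.69 and 3.98 in IL10KO and 3.95, 4.18 and 4.10 in WT arrays, which overlapped (difference -0.16, limma adjusted p = 0.492).

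Of the peptides and granule proteins, Vip and Scg2 were lower in IL10KO colon. Vip encodes vasoactive intestinal peptide, which relaxes gut muscle and drives secretion. Its signals were 8.47, 7.98 and 8.60 in DKO, 7.11, 7.44 and 7.94 in IL10KO, 8.52, 7.82 and 8.57 in SKO, and 8.35, 8.40 and 8.44 in WT arrays. IL10KO and WT arrays did not overlap (difference -0.90 ± 0.24 SE, limma adjusted p = 0.0342), whereas IL10KO replicate 3 lay above SKO replicate 2. Scg2 encodes secretogranin II, a protein of dense-core granules in neurons and also in endocrine cells. It read 7.24, 7.27 and 7.22 in DKO, 6.17, 6.93 and 6.73 in IL10KO, 7.36, 7.14 and 7.41 in SKO, and 7.36, 7.34 and 7.30 in WT arrays, with the IL10KO arrays lowest and IL10KO replicate 1 lowest of all (difference -0.72 ± 0.17 SE, limma adjusted p = 0.0204).

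**Figure D1:**
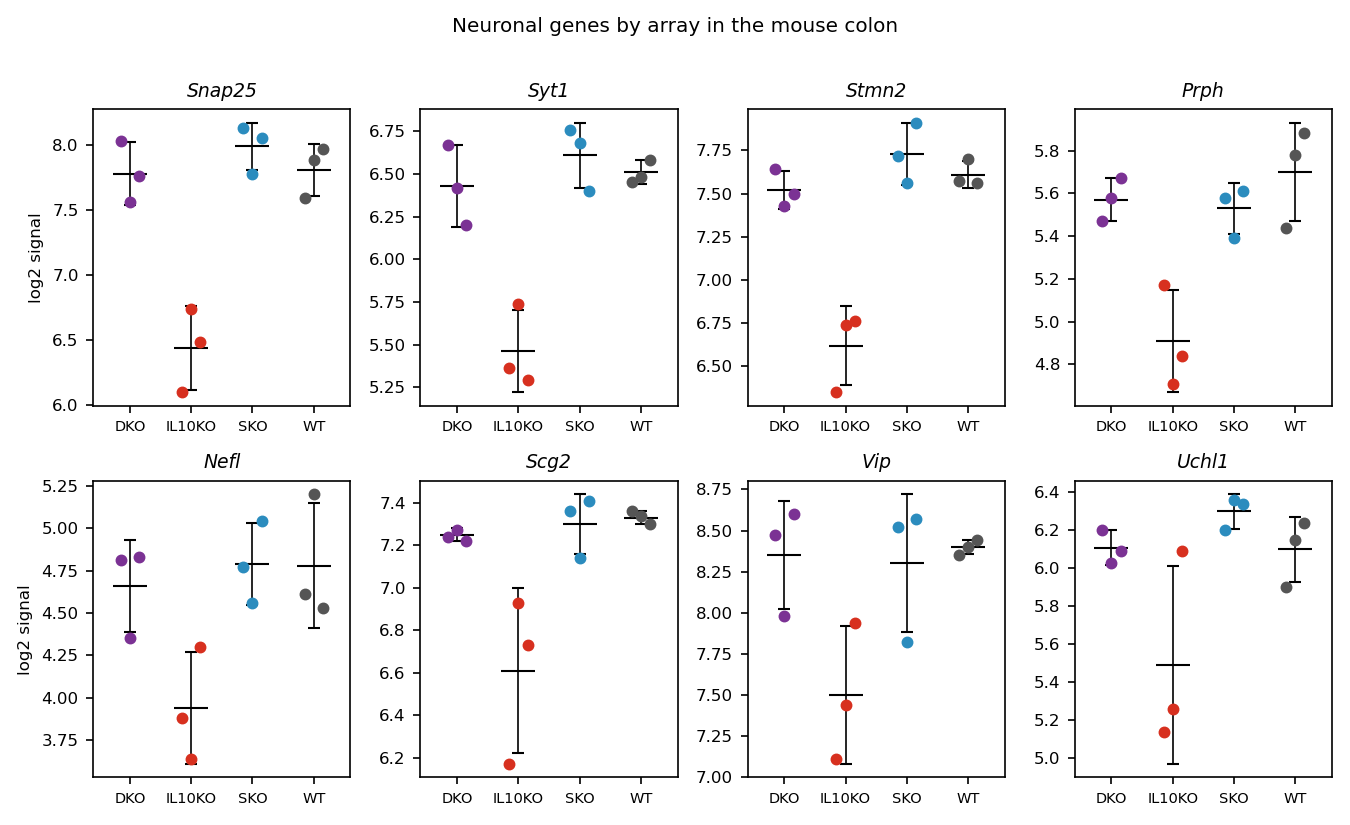
Deposited log2 signal (vertical axis) of Snap25, Syt1, Stmn2, Prph, Nefl, Scg2, Vip and Uchl1 in each of 12 arrays, by genotype; dots are arrays, bars are genotype means and error bars are SD (n = 3). The IL10KO arrays lie below all others for the first 6 genes, Vip in IL10KO replicate 3 overlaps 1 SKO array, and Uchl1 in IL10KO replicate 3 lies among the other genotypes.

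Of the other structural genes, none passed the test in IL10KO against WT colon. Uchl1, the neuronal ubiquitin hydrolase known as PGP9.5, read 5.14, 5.26 and 6.09 in IL10KO and 5.90, 6.15 and 6.24 in WT arrays. IL10KO replicate 3 lay within the WT range and the other 2 IL10KO arrays below it (difference -0.60 ± 0.21 SE, limma adjusted p = 0.0868), and a second Uchl1 probe set gave 0.19 (adjusted p = 0.695 over all probe sets), so the 2 probe sets disagree. L1cam, a neural adhesion molecule, read 7.38, 7.97 and 7.28 in IL10KO and 8.04, 8.07 and 8.08 in WT arrays, without overlap (difference -0.52, limma adjusted p = 0.114). The RNA-binding proteins HuD and HuC, encoded by Elavl4 and Elavl3, had differences of -0.36 and -0.33, the growth cone protein gene Gap43 -0.35, neuronal tubulin Tubb3 -0.24 and the sodium channel gene Scn9a -0.11, with limma adjusted p from 0.204 to 0.699.

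The transmitter genes were less uniform. Nos1, which makes nitric oxide in inhibitory motor neurons, read 5.32, 5.38 and 5.49 in IL10KO and 5.47, 5.96 and 5.95 in WT arrays, with WT replicate 1 inside the IL10KO range (difference -0.40 ± 0.14 SE, limma adjusted p = 0.102). Chat, which makes acetylcholine, lay between 4.81 and 5.08 in all 12 arrays (IL10KO minus WT -0.10, 95% interval -0.34 to 0.14). Tac1, the substance P precursor, spread widely within IL10KO, with 6.29, 6.82 and 7.61 against 6.81, 6.90 and 7.10 in WT arrays (difference -0.03, 95% interval -0.61 to 0.55). Gal, encoding galanin, read 5.15, 5.07 and 5.66 in IL10KO and 5.59, 7.09 and 5.85 in WT arrays, and its difference of -0.88 (limma adjusted p = 0.0908) was -0.43 without WT replicate 2, which also had the highest acinar signal; the part of pancreatic RNA in this value was not tested. Without WT replicate 1 the Gal difference was -1.18 and passed (limma adjusted p = 0.0462). Npy gave -0.12 and the granule protein gene Resp18 -0.28, neither past the test. Cartpt, encoding the CART peptide, stood on the other side: it read 5.79, 5.92 and 5.88 in IL10KO and 5.63, 5.72 and 5.57 in WT arrays, higher in every IL10KO array than in any WT array, yet with a difference of 0.22 it missed the threshold (limma adjusted p = 0.269).

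Of the receptors of the lineage, neither passed the test. Ret, the signalling receptor for GDNF family ligands, read 6.64, 6.45 and 6.35 in DKO, 6.77, 7.26 and 6.66 in IL10KO, 6.63, 5.98 and 6.78 in SKO, and 6.52, 6.66 and 6.34 in WT arrays. IL10KO replicate 2 was the highest of 12, and IL10KO replicate 3 and WT replicate 2 both round to 6.66, with all IL10KO arrays above all WT arrays before rounding (difference 0.39 ± 0.21 SE, limma adjusted p = 0.25). Its partner Gfra1, which binds GDNF, lay between 5.86 and 5.92 in IL10KO and 5.90 and 6.05 in WT arrays (difference -0.07).

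Glial members showed no difference past the test in IL10KO against WT colon. By mean signal S100b stood at percentile 26 of all genes, Sox10 at 37.9, Gfap at 48.5 and Erbb3 at 97.7. Without a detection call, a dim signal could not be told from background. S100b, a calcium-binding protein used to mark enteric glia, read 4.53, 4.19 and 4.04 in DKO, 3.70, 4.01 and 4.02 in IL10KO, 4.0, 4.21 and 3.93 in SKO, and 4.13, 4.12 and 4.32 in WT arrays. The IL10KO arrays lay below the WT arrays but overlapped with SKO (difference from WT -0.28, 95% interval -0.62 to 0.05). Sox10, the transcription factor of neural crest and glia, read 4.96, 4.88 and 4.81 in DKO, 4.96, 4.27 and 4.87 in IL10KO, 4.59, 4.91 and 4.70 in SKO, and 4.59, 4.91 and 4.92 in WT arrays. All genotypes overlapped, and IL10KO replicate 2 alone was low (difference from WT -0.11, 95% interval -0.49 to 0.28). Gfap, the glial filament protein, read 5.49, 5.48 and 5.62 in DKO, 5.97, 5.53 and 4.71 in IL10KO, 5.62, 5.49 and 5.30 in SKO, and 5.31, 5.22 and 5.60 in WT arrays. Both the highest and the lowest Gfap signals were in IL10KO arrays (difference from WT 0.02, 95% interval -0.50 to 0.54).

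Erbb3, a neuregulin receptor of Schwann cells and glia, is also expressed by gut epithelium. It read 10.25, 10.18 and 9.94 in DKO, 9.59, 9.96 and 9.55 in IL10KO, 10.28, 10.06 and 10.41 in SKO, and 10.04, 10.03 and 10.27 in WT arrays. The IL10KO arrays were below all WT arrays (difference -0.42 ± 0.15 SE, limma adjusted p = 0.109), and IL10KO replicate 2 lay above DKO replicate 3. In all, 10 of 30 members had every IL10KO array below every WT array, against 16% of all genes, and 2, Ret and Cartpt, had every IL10KO array above, against 14% of all genes.

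**Figure D2:**
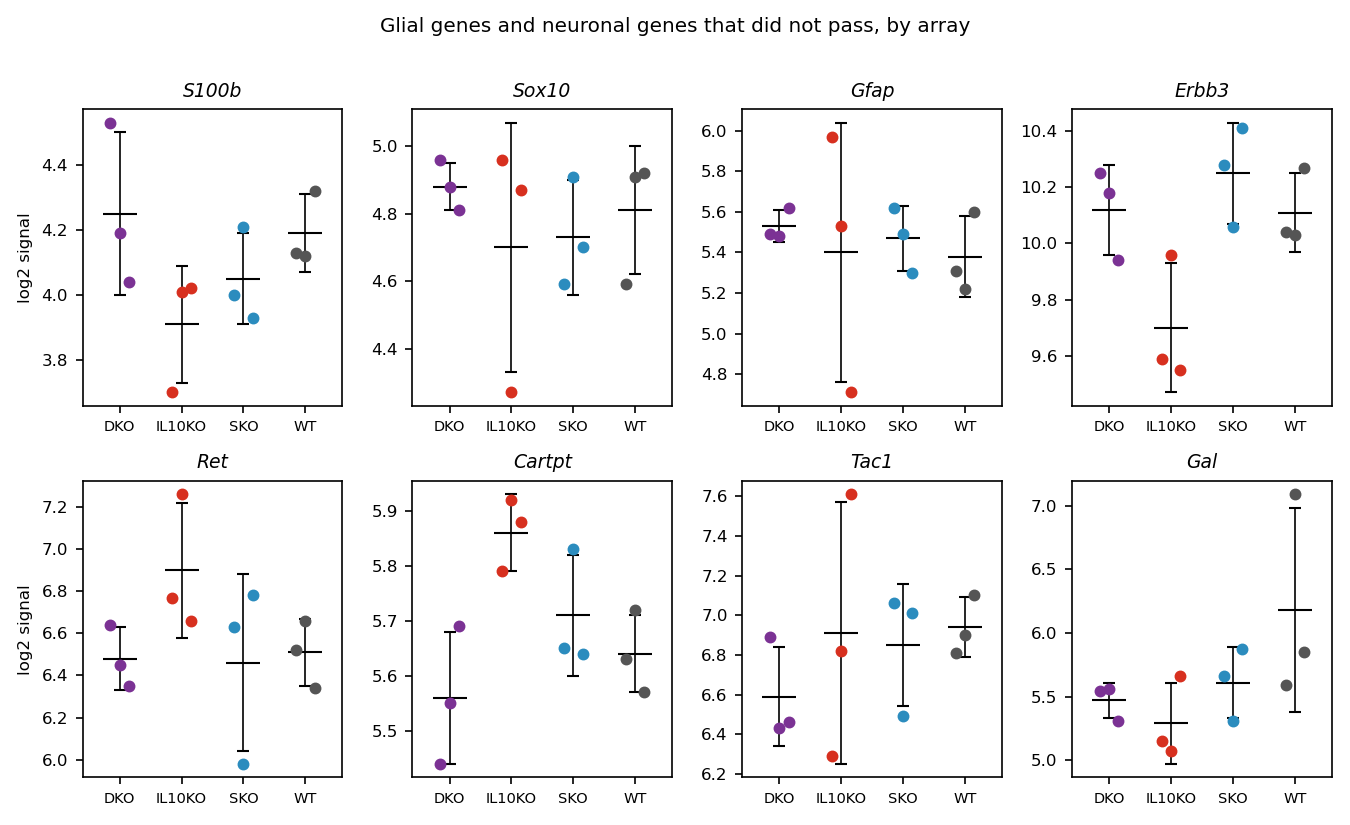
Deposited log2 signal (vertical axis) of the glial genes S100b, Sox10, Gfap and Erbb3 and of Ret, Cartpt, Tac1 and Gal in each of 12 arrays, by genotype; dots are arrays, bars are genotype means and error bars are SD (n = 3). With all 12 arrays on this scale no gene shown passed the test in any comparison; the mean signals of Ret and Cartpt are highest in IL10KO, and Gal has 1 WT array at 7.09.

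Other genes of the same cells were examined as lists that do not hold the members, and are given by counts. These lists too were chosen with earlier results of these data known, so they are no independent check. Of 27 further neuronal structure and synapse genes, 7 were lower and 1 higher in IL10KO than in WT colon, with a median of -0.26. The largest falls were in Syn2, a synapsin, which averaged 6.18 ± 0.39 in IL10KO and 7.39 ± 0.03 in WT arrays (SD, n = 3 each, difference -1.21, limma adjusted p = 0.00188), Map2, the dendritic microtubule protein (-1.14), and Cntn1, the adhesion protein contactin 1 (-0.97). The gene that was higher is Thy1 (0.63, limma adjusted p = 0.0386), a surface protein of neurons that T cells and fibroblasts also carry.

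Of 14 further transmitter genes 3 were lower and none higher. Nmu, encoding neuromedin U, averaged 4.62 ± 0.28 in IL10KO and 5.98 ± 0.22 in WT arrays (SD, n = 3 each, difference -1.36, limma adjusted p = 0.00122), Ddc, the decarboxylase that makes serotonin and dopamine and is also active in gut epithelium, differed by -1.08, and Nos1ap, an adaptor of nitric oxide synthase, by -0.48. Of 13 receptors and channels 3 were lower and none higher: the ganglionic nicotinic receptor subunit Chrna3 (-1.03), the ATP-gated channel P2rx2 (-0.97) and the sodium channel Scn11a (-0.61). In the lineage list, 1 of 9 genes was lower, the neurturin receptor Gfra2 (-1.15 ± 0.24 SE, limma adjusted p = 0.0124), and none was higher.

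Of 12 further glial genes, Gpr37l1, an orphan receptor of glia, was lower (-0.60, limma adjusted p = 0.0376) and the other 11 did not pass, with a list median of -0.22. Pmp22 was the 1 of 7 myelin genes that was lower (-0.66), a gene that many other cells express. Dbh, the noradrenaline-making enzyme, was the 1 of 5 sympathetic nerve genes that was lower (-0.72, limma adjusted p = 0.0485).

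Markers of the cells that lie beside the myenteric plexus moved with the neuronal genes. Of 18 measured smooth muscle genes 13 were lower in IL10KO than in WT colon and none higher, with a median of -0.76, and 4 of 5 markers of interstitial cells of Cajal, the pacemaker cells of gut muscle, were lower, with Ano1 at -1.21, Kit at -0.89, Thbs4 at -0.87 and Etv1 at -0.66. The smooth muscle list averaged 9.71 to 9.96 in DKO, 8.92 to 9.14 in IL10KO, 9.81 to 10.0 in SKO and 9.74 to 9.87 in WT arrays, so its IL10KO arrays stood below all others. Over the same arrays the 15 structural and synaptic members averaged 5.71 to 5.84 in DKO, 5.24 to 5.36 in IL10KO, 5.84 to 5.92 in SKO and 5.69 to 5.89 in WT arrays, with the IL10KO arrays again below all others. Leukocyte markers moved the opposite way, with 3 of 13 higher in IL10KO than in WT colon and list means of 6.39 to 6.62 in DKO, 6.94 to 7.83 in IL10KO, 6.23 to 6.36 in SKO and 6.17 to 6.98 in WT arrays. Of the lists that set single arrays apart, 12 of 16 squamous genes were higher, and 5 of 12 acinar and 2 of 15 columnar genes lower, in IL10KO than in WT colon. The columnar list averaged 10.86 to 10.93 in DKO, 10.44 to 10.64 in IL10KO, 10.75 to 10.89 in SKO and 10.77 to 10.9 in WT arrays. Its IL10KO arrays thus also stood below all others, so this order was not particular to the muscle wall. The part of tissue make-up in the neuronal values was not tested.

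Set against the mean of the smooth muscle list in each array, Snap25 was still lower in IL10KO than in WT colon (-0.61, limma adjusted p = 0.00343), while Syt1 (-0.28), Stmn2 (-0.23), Vip (-0.13), Nefl (-0.07) and Prph (-0.03) no longer passed and Scg2 turned to 0.04. On that scale 19 members were higher and 1 lower, where 86% of all genes were called and the all-gene median was 0.79.

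**Figure D3:**
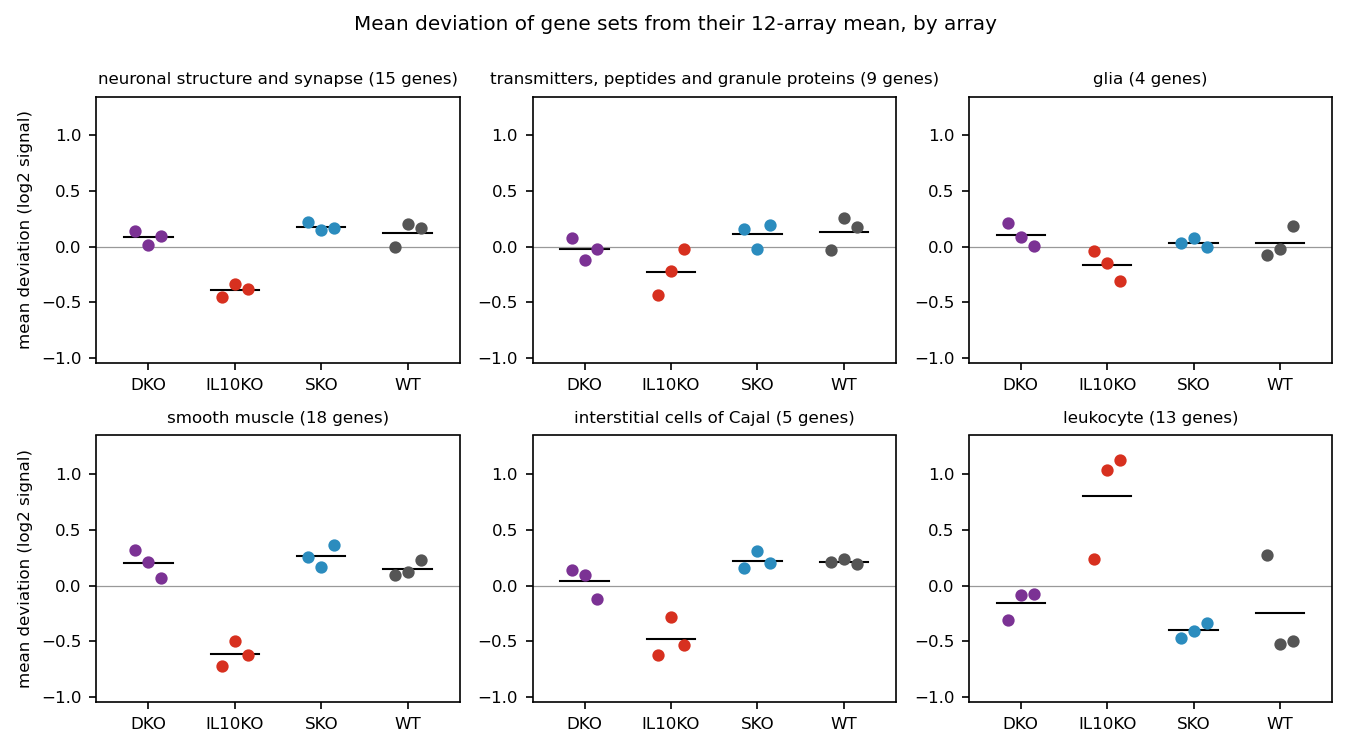
Mean deviation (log2, vertical axis) of 6 gene sets from their own mean over the 12 arrays, by genotype; dots are arrays and lines are genotype means. Neuronal structure and synapse genes, smooth muscle genes and interstitial cell markers are lowest in the IL10KO arrays on the scale of the deposited values, the glial genes of IL10KO and WT overlap, and leukocyte markers have their highest mean in IL10KO.

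Enteroendocrine cells share granule and peptide genes with neurons. Of 20 enteroendocrine markers 3 were lower in IL10KO than in WT colon, Insl5 (-1.25), Tph1 (-0.87) and Chga (-0.67), and 1 was higher, Nts (0.77). None of 10 pancreatic islet genes passed, with list means of 4.36 to 4.48 in DKO, 4.51 to 4.76 in IL10KO, 4.39 to 4.74 in SKO and 4.38 to 4.54 in WT arrays. The enteroendocrine list averaged 6.18 to 6.28 in DKO, 5.9 to 5.99 in IL10KO, 6.08 to 6.13 in SKO and 6.02 to 6.18 in WT arrays. Its IL10KO arrays stood below all others as well. The part of endocrine cells in the Scg2 value was not tested.

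The result depended on few arrays for some members and not for others. Leaving out any 1 array, Snap25, Syt1, Stmn2 and Prph passed in every case, while Vip was lost without IL10KO replicate 1 or 2 or any 1 WT array, Nefl without IL10KO replicate 1 or 2 or WT replicate 1 or 2, and Scg2 without any 1 WT array. Some members that missed with all 12 arrays passed with 1 left out, namely Uchl1 without IL10KO replicate 3 (-0.90, limma adjusted p = 0.00525), L1cam (-0.73, adjusted p = 0.0214) and Erbb3 (-0.55, adjusted p = 0.0363) without IL10KO replicate 2, and Nos1 (-0.56, adjusted p = 0.0364) and Gal without WT replicate 1. The count of lower members was 4 without WT replicate 2 and 5 without the library labelled WT replicate 3. Of all 22180 genes, 475 and 530 were lower in these fits, against 1112 with all 12 arrays. Where members gained a call, 1977 genes were lower without IL10KO replicate 2, 652 without IL10KO replicate 3 and 563 without WT replicate 1. Without WT replicates 1 and 2, the arrays with acinar signal, the library labelled WT replicate 3 is alone as WT, so only sizes are given. The differences were -1.53 for Snap25, -1.12 for Syt1, -0.94 for Stmn2, -0.98 for Prph, -0.94 for Vip, -0.69 for Scg2 and -0.58 for Nefl. Without IL10KO replicates 2 and 3, the arrays with the most squamous signal, the Snap25 difference was -1.71 and that of Prph -0.53. Syt1 gave -1.15, Stmn2 -1.26, Vip -1.29, Scg2 -1.16 and Nefl -0.89. That fit has 1 IL10KO array, assumed to vary like the other groups.

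Loss of STING in mice without IL-10 went with higher signals of neuronal genes. DKO against IL10KO colon is the comparison the study was made for, and it shares its 3 IL10KO arrays with the comparison above, so the 2 sets of differences are not independent. In it 5 of 30 members were higher at an adjusted p under 0.05, against 3.34% of all genes, and none was lower, against 2.45%. They were Snap25 at 1.34 ± 0.18 (SE, 2.53-fold, limma adjusted p = 0.00129), Syt1 at 0.97 ± 0.16 (adjusted p = 0.00434), Stmn2 at 0.91 ± 0.15 (adjusted p = 0.00339), Prph at 0.67 ± 0.16 (adjusted p = 0.026) and Scg2 at 0.64 ± 0.17 (adjusted p = 0.0433). For each of them all 3 DKO arrays lay above all 3 IL10KO arrays. The median over the 30 members was 0.25, against -0.04 over all genes.

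Members that narrowly missed were Vip, at 0.85 (95% interval 0.34 to 1.36, limma adjusted p = 0.0519), and Nefl, at 0.72 (adjusted p = 0.0703). Uchl1 gave 0.61 (adjusted p = 0.0931) and Erbb3 0.42 (adjusted p = 0.115). Of the other glial genes S100b gave 0.34, Sox10 0.18 and Gfap 0.13, none past the test. Groups did not overlap in 12 members with higher DKO signals, against 13.4% of all genes, and in 2, Ret and Cartpt, with lower DKO signals, against 13.8%. Their differences were -0.42 for Ret and -0.30 for Cartpt, and neither passed.

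Among the lists of other genes, 4 of 27 neuronal structure genes were higher in DKO than in IL10KO colon, Syn2 (0.88), Ina (0.60), Kif5a (0.55) and Kif1a (0.50), the last 3 being a neuronal filament and motor proteins of axonal transport, and none was lower. In the transmitter list 3 of 14 were higher, Nmu (1.01), Ddc (0.99) and Nos1ap (0.43), and 2 of 13 receptors and channels, Chrna3 (0.99) and P2rx2 (0.76). Gfra2 averaged 7.65 ± 0.25 in DKO and 6.44 ± 0.63 in IL10KO arrays (SD, n = 3 each, difference 1.21, limma adjusted p = 0.012). Among glial genes Fabp7, a fatty acid binding protein of glia, was higher (0.79, limma adjusted p = 0.0471) and the other 11 of 12 did not pass. Smooth muscle genes were higher in 14 of 18 cases, with a median of 0.80, and 3 of 5 interstitial cell markers were higher, while 2 of 13 leukocyte genes were lower. In the epithelial lists 5 of 16 squamous genes were lower, 3 of 15 columnar genes were higher, and 3 of 20 enteroendocrine genes were higher and 1 lower. Of 12 acinar genes 2 were higher. Relative to the smooth muscle mean, Snap25 remained higher in DKO (0.52, limma adjusted p = 0.0071), Syt1 (0.15, adjusted p = 0.357) and Stmn2 (0.09, adjusted p = 0.528) no longer passed, and Prph and Scg2 turned to -0.15 and -0.18. The members' median on that scale was -0.56, against -0.85 over all genes.

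Leaving out single arrays, Snap25, Syt1 and Stmn2 passed in every case. The count was 3 without DKO replicate 1, 2 or 3, since Prph and Scg2 were then lost, and Prph was lost also without IL10KO replicate 3 and Scg2 in 7 further omissions. Without DKO replicate 1, 2 or 3, 1.92%, 2.27% and 4.22% of all genes were called, against 5.79% with all 12 arrays. Without IL10KO replicate 2, IL10KO replicate 3 or SKO replicate 2, the shares were 10.6%, 3.77% and 8.08%. With IL10KO replicates 2 and 3 both left out, which leaves 1 IL10KO array, Prph gave 0.40. In that fit Snap25 gave 1.68, Syt1 1.07, Stmn2 1.17 and Scg2 1.07. Of the members that missed with all 12 arrays, those that passed with 1 left out were Erbb3 (0.55, limma adjusted p = 0.0409) and L1cam (0.68, adjusted p = 0.0342) without IL10KO replicate 2. Without IL10KO replicate 3 these were Uchl1 (0.91, adjusted p = 0.00525), Vip (1.07, adjusted p = 0.0292) and Nefl (0.90, adjusted p = 0.049), and Vip also passed without SKO replicate 2 (adjusted p = 0.0276).

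**Figure D4:**
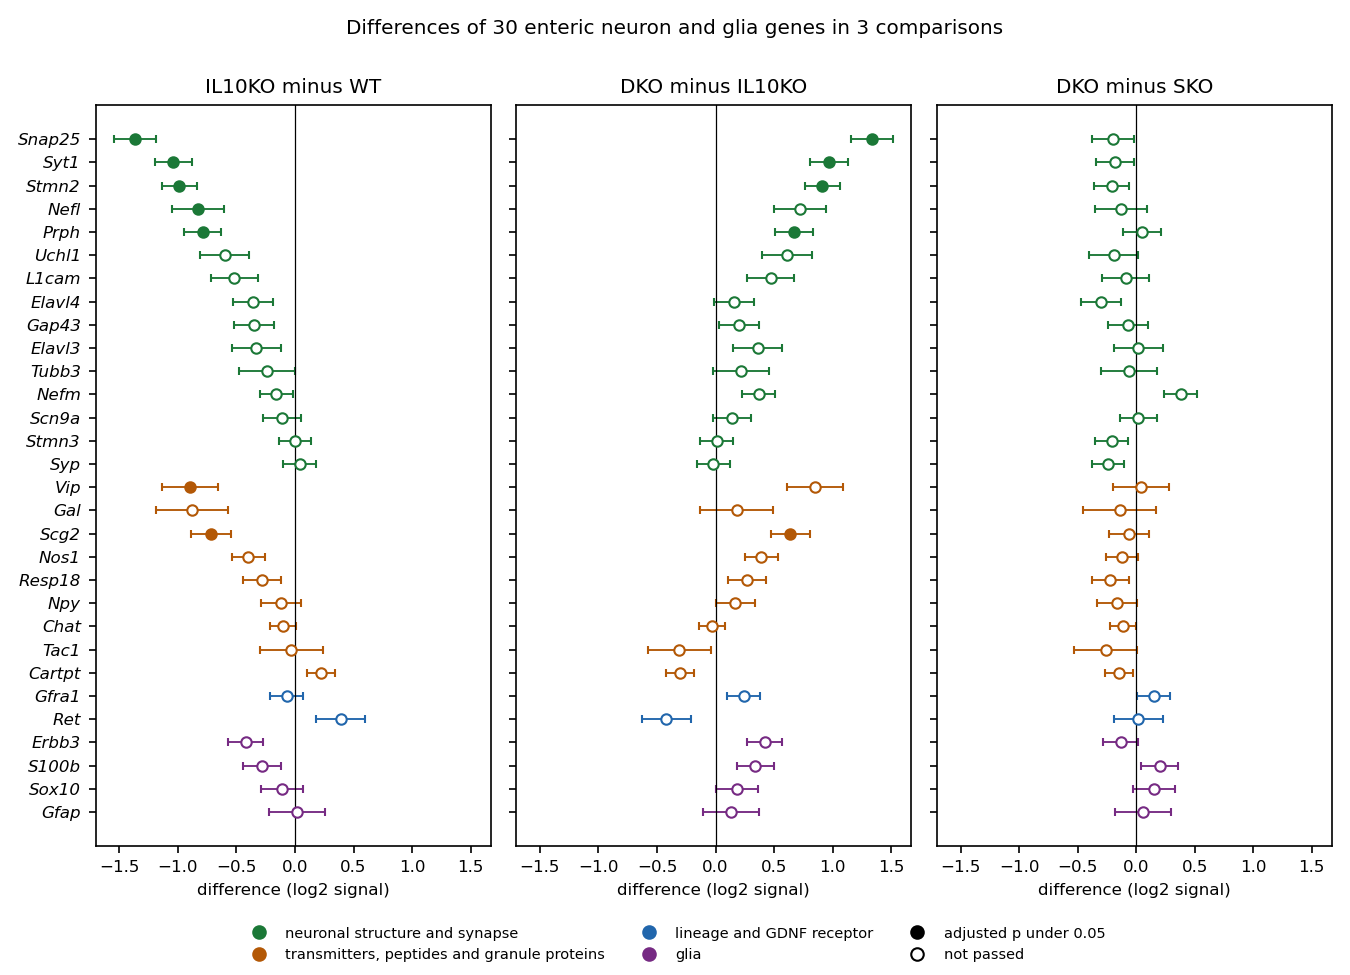
Log2 difference (horizontal axis) of the 30 members in IL10KO minus WT, DKO minus IL10KO and DKO minus SKO colon; error bars are SE, and filled points have an adjusted p under 0.05 over all 22180 genes. Snap25 has the largest difference in the first 2 panels on this scale of the deposited values, -1.37 and 1.34, and no point is filled in the third. Relative to smooth muscle, where the all-gene medians are 0.79 and -0.85, Snap25 stands at -0.61 and 0.52. Ret, at 1.16 and -1.24, is then further from 0, on the same side as the all-gene medians.

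The colon of mice lacking both genes was also set against that of mice with both. In DKO against WT no member passed in limma, against 0.0451% of all genes, and 1, Gal (-0.71), had an unadjusted p under 0.05, against 2.92% of genes. The Snap25 difference was -0.03 (95% interval -0.43 to 0.37), that of Syt1 -0.08 (-0.43 to 0.27) and that of Stmn2 -0.09 (-0.40 to 0.23). Their values in IL10KO against WT, which uses the same WT arrays, were -1.37, -1.04 and -0.99 in that order. The Vip interval, -0.56 to 0.46, and that of Nefl, -0.59 to 0.36, were wider. The median over members was -0.02.

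SKO against WT colon, the effect of STING loss with IL-10 present, gave no called gene at all, so 0% of genes and 0 of 30 members passed in limma. At an unadjusted p under 0.05 no member passed, against 2.05% of genes. The 3 members with the smallest p were Gal (-0.57, 95% interval -1.23 to 0.10), Syp (0.25, -0.05 to 0.55) and Stmn3 (0.22, -0.08 to 0.52). The Sting1 value of the library labelled WT replicate 3 bears on this comparison most directly, and without that library 0 of 30 members passed, against 55 genes or 0.248% of all genes.

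DKO against SKO, the effect of IL-10 loss without STING, shares no array with IL10KO against WT. No member passed, against 0.0451% of all genes, and 1, Nefm, had an unadjusted p under 0.05, against 4.77% of genes. Nefm read 4.27, 4.27 and 4.32 in DKO and 3.86, 4.12 and 3.74 in SKO arrays, without overlap (difference 0.38, 95% interval 0.07 to 0.69). The next smallest p were those of Elavl4 (-0.30, 95% interval -0.68 to 0.08) and Syp (-0.24, -0.54 to 0.07). Snap25 differed by -0.20 (-0.60 to 0.20). In this comparison 20 of 30 members were below 0, against 56.5% of all genes. In IL10KO against WT 25 of 30 were below 0, and 17 were below 0 in both, against 26.2% of all genes. An overlap of about this size follows from the 2 separate counts alone, so it shows no agreement between the comparisons.

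Whether the effect of IL-10 loss differed with STING was tested as an interaction, the DKO minus SKO difference less the IL10KO minus WT difference. No member passed, against 0.645% of all genes. At an unadjusted p under 0.05, 9 of 30 members were positive and none negative, against 7.85% and 7.84% of all genes. The largest was Snap25 at 1.17 (95% interval 0.61 to 1.73, limma adjusted p = 0.0685), followed by Vip at 0.94 (adjusted p = 0.224), Syt1 at 0.86 (adjusted p = 0.123), Prph at 0.84 (adjusted p = 0.119) and Stmn2 at 0.78 (adjusted p = 0.117). IL10KO against WT gave 7 called members and DKO against SKO none, and the difference between these effects itself passed for no member. Single arrays changed the interaction calls. Without IL10KO replicate 2, Snap25 (limma adjusted p = 0.0293) and Syt1 (adjusted p = 0.0453) passed, where 1.7% of all genes were called. Without IL10KO replicate 1, Prph passed (limma adjusted p = 0.0417), where 1.42% of all genes were called. Both shares were above the 0.645% found with no array left out, so calls rose over all genes as well. Of other genes of these lists, Ddc passed (0.97, limma adjusted p = 0.0434), as did the smooth muscle genes Synpo2 (1.3) and Pcp4 (1.27), the neurotrophic ligand gene Bmp2 (1.0), the leukocyte genes S100a8 (-4.15, adjusted p = 0.0103) and S100a9 (-2.94, adjusted p = 0.0147), and the acinar gene Clps (3.51, adjusted p = 0.0335). Clps averaged 10.47 ± 1.28 in WT arrays (SD, n = 3), of which replicates 1 and 2 carried the acinar signal. The part of that signal in the Clps value was not tested.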

How the data were processed

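Colon RNA of 4 mouse genotypes, 3 arrays each, was hybridised to Affymetrix whole-transcript arrays. It was isolated with QIAGEN RNeasy, and 300 ng of it went into the WT PLUS reaction for each array, per the labels' protocols. The authors deposited 1 table with a log2 signal for every probe set and array. The submitters' processing notes name Affymetrix Expression Console 1.3.1.187; that the scale is log2 was read from the range of the values. Background correction, summary, normalization between arrays and the genome build of the array are not stated in those sources, and no detection call or background level was used here. The number of arrays limits the precision.

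Probe sets were named through the platform annotation, in which 23521 of 41345 carried 1 symbol, 1814 several and 16010 none; the brightest probe set by mean over all arrays stood for each of 22180 genes, of which 1082 had more than 1. A mean per genotype was fitted to all 12 arrays with limma 3.58.1 in R 4.3.3 (lmFit and eBayes, 8 residual and 5.56 prior degrees of freedom, two-sided), with Benjamini-Hochberg adjustment over all genes and a call at an adjusted p under 0.05. The fit was tested on simulated data. Replicates were numbered in accession order, and the numbers pair nothing. The 31 members and 16 lists of other genes (234 entries, 208 measured) were chosen with earlier results of these data known, so no test was made over a list. All members are named; of each list, up to 3 called genes with the largest difference are named per comparison, and Thy1, Etv1, Chga and Kif1a were named after their values were seen. Alternatives changed the normalization, the probe set rule, the filter on dim genes, the prior, the samples fitted and the arrays kept, and 2 of them, leaving out pairs of arrays with acinar or squamous signal, were added after seeing the data.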

Additional observations from a re-analysis of the deposited data

How the results depend on the processing

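Of 24 other settings, all that left over 1 array per genotype kept the Snap25 call in IL10KO against WT and in DKO against IL10KO. These include the scale centred on the smooth muscle mean, where 86% and 89.9% of all genes were called. With single arrays left out, the count of called members ran from 4 to 8 in IL10KO against WT (lowest without WT replicate 2), 3 to 7 in DKO against IL10KO (lowest without DKO replicate 1, 2 or 3) and 0 to 2 in the interaction, and stayed 0 in the contrasts DKO minus WT, SKO minus WT and DKO minus SKO. The share of all genes called ran from 3.53% to 13.8%, 1.92% to 10.6% and 0.225% to 1.7% in the first 3. It reached at most 0.311%, 0.248% and 0.0902% in the others. The members' medians then ran from -0.38 to -0.24, 0.19 to 0.36, 0.20 to 0.38, -0.08 to 0, -0.02 to 0.10 and -0.14 to -0.08 in that order. With all probe sets tested the counts were 4 and 3 in IL10KO against WT and DKO against IL10KO, where 2.97% and 2% of probe sets were called. With only the compared genotypes fitted they were 3 and 3, where 3.17% and 2.2% of genes were called. That setting gives no interaction, which needs all 4 groups. Array weights gave 3 called members in DKO against SKO, 3 in the interaction and an SKO minus WT median of 0.12, with 8.75% and 3.32% of all genes called in DKO against SKO and the interaction, from weights whose fit gave a warning that it had not converged. A trended, robust prior gave 1 in the interaction, where 0.839% of all genes were called. With SKO replicate 2, IL10KO replicate 1 and WT replicate 3 left out together, the IL10KO against WT count was 4, where 4.57% of all genes were called. The SKO minus WT median was then 0.14. Without WT replicates 1 and 2 the IL10KO against WT median was -0.41. Without IL10KO replicates 2 and 3 the medians were -0.49 in IL10KO against WT, 0.36 in DKO against IL10KO and 0.38 in the interaction. The cause of these shifts was not tested, beyond the fewer arrays or greater number of tests by construction.

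Centred on the smooth muscle mean, the members' medians were 0.46, -0.56, -0.09 and -0.42 in IL10KO minus WT, DKO minus IL10KO, SKO minus WT and the interaction, against 0.79, -0.85, -0.10 and -0.75 over all genes. The counts of called members became 20, 20 and 10 in IL10KO minus WT, DKO minus IL10KO and the interaction, where 86%, 89.9% and 62.6% of all genes were called. Among members called on this scale or on that of the deposited values, signs turned in IL10KO minus WT for Elavl4 (0.41), Tubb3 (0.53), Nos1 (0.37), Chat (0.66), Tac1 (0.73), Nefm (0.60), Gfra1 (0.69), S100b (0.48), Sox10 (0.66), Erbb3 (0.35), Scn9a (0.66), Gap43 (0.41), Resp18 (0.48), Scg2 (0.04) and Npy (0.64). In DKO minus IL10KO such members' signs turned for Elavl4 (-0.66), Tubb3 (-0.60), Nos1 (-0.43), Prph (-0.15), Stmn3 (-0.81), Nefm (-0.44), Gfra1 (-0.58), S100b (-0.47), Sox10 (-0.64), Gfap (-0.69), Erbb3 (-0.39), Scn9a (-0.68), Gap43 (-0.61), Resp18 (-0.55), Scg2 (-0.18) and Npy (-0.65), and in the interaction for Elavl4 (-0.65), Gfra1 (-0.48) and Resp18 (-0.64). Members called on neither scale also changed sign: Elavl3 (0.43), Uchl1 (0.16) and L1cam (0.25) in IL10KO minus WT, Elavl3 (-0.45), Uchl1 (-0.20), Gal (-0.64), Nefl (-0.10) and L1cam (-0.35) in DKO minus IL10KO, and Elavl3, Uchl1, Tubb3, Nos1, Nefm, S100b, Sox10, Gfap, Erbb3, Scn9a, Gap43, Scg2 and L1cam in the interaction, with values of -0.67 (Gfap) to -0.04 (Scg2). Leaving out the dimmest genes by mean signal removed 4 members, Elavl4, Nefm, S100b and Scn9a.

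No paired analysis was possible because the labels give the arrays of different genotypes no shared replicate number.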

Other observations

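Ligands that act on enteric neurons and glia were not uniform. Of 12 such genes, Nrg1, the neuregulin that Erbb3 binds, averaged 7.89 ± 0.49 in IL10KO and 6.99 ± 0.19 in WT arrays (SD, n = 3 each, difference 0.90, limma adjusted p = 0.0311). Bmp2, a growth factor made by gut macrophages and epithelium, averaged 7.87 ± 0.09 in IL10KO and 8.63 ± 0.14 in WT arrays (difference -0.75, adjusted p = 0.0061), and the axon guidance cue Ntn1 differed by -0.71 (adjusted p = 0.0156). The other 9 did not pass. In DKO against IL10KO colon Nrg1 was lower (-1.15, limma adjusted p = 0.012) and Bmp2 higher (1.02, adjusted p = 0.00123), with the same 3 IL10KO arrays in both comparisons. In the interaction Bmp2 passed (1.0, limma adjusted p = 0.0393). Leukocyte genes S100a8 and S100a9 differed between IL10KO and WT colon by 4.41 and 3.11 (adjusted p = 8.53e-05 and 0.000194).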
